A study of Mus musculus with 4 samples.

Results

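The genes described here are 33 genes of glycolysis and of the cell's response to low oxygen, chosen by their symbols, out of the 32285 genes counted in mouse alveolospheres. All 33 symbols were found, in 34 rows of the gene table, because Aldoa has a second row that held 19 UMIs (unique molecular identifiers, one per captured RNA molecule) against 56073 in the row used. Alveolospheres are organoids in which alveolar epithelial cells (AT2, sorted here by lysotracker) grow together with PDGFRa+ lung fibroblasts. The control group (2 libraries) is given as wildtype, and the knockdown group (2 libraries) as wildtype AT2 cells with a PDGFRa-specific knockdown of YAP and TAZ in the fibroblasts. YAP and TAZ are transcriptional co-activators of the Hippo pathway, encoded by Yap1 and Wwtr1. All 4 libraries, controls included, received doxycycline at 3 µg/ml: it was added on day 7 and the cultures were taken on day 14. The labels call the libraries biological replicates but name no animals or cultures, so each p-value reflects only how far these libraries spread, and part of that may be technical. No label used here gives the age or strain of the mice or the knockdown construct.

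Glycolysis splits glucose into pyruvate, and cells that make little use of the respiratory chain turn pyruvate into lactate and export it. When oxygen is low, prolyl hydroxylases of the Egln family no longer mark the hypoxia-inducible factors (HIF) for destruction, and HIF then raises glucose transporters, nearly every glycolytic enzyme and a set of further targets, several of which limit the response itself. In the alveolus, the HIF-2α gene Epas1 is active in epithelial and endothelial cells, and AT2 cells are metabolically active cells that make surfactant lipid.

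HIF binds the core letters ACGTG or GCGTG, so the 250 bases upstream of each member's start site were read for them on both strands. RefSeq promoters (GRCm38.p6) were matched by symbol for 30 of the 33 members, giving 43 promoters; Epas1, Bhlhe40 and Ndrg1 were not matched. ACGTG was found in 22 of the 43 member promoters (51.2%) and in 16.6% of all 32851 promoters of the same length, and GCGTG in 55.8% against 28.2%. Promoters of the same gene can overlap and share matches, and they did so for Aldoa, Eno1 and Pfkm. By gene, 19 of the 30 matched members held ACGTG in a promoter. At least 1 core was present in 36 member promoters (83.7%) against 38.6% of all. A palindromic CACGTG counts as 2 overlapping ACGTG matches. Member promoters also held more G and C, 61.6% of bases against 53.2% over all promoters, and both cores are rich in them. Each match is a description of the letters and not a binding site.

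The sequences below are those of 6 members that changed in the tests that follow and of Pgk1, an established HIF target that did not. Each is the 250 bases before the start site, 5′ to 3′ on the gene's strand, with ACGTG and GCGTG, or their reverse complements CACGT and CACGC, in capitals. Egln3 lies at chr12:54203875-54204124 (minus strand), Slc16a3 at chr11:120948817-120949066 (plus), Adm at chr7:110627407-110627656 (plus), Pfkp at chr13:6648772-6649021 (minus), Aldoc at chr11:78322823-78323072 (plus, the first of 2 promoters in the table), Pfkm at chr15:98092339-98092588 (plus, the first of 4) and Pgk1 at chrX:106186850-106187099 (plus).
Egln3: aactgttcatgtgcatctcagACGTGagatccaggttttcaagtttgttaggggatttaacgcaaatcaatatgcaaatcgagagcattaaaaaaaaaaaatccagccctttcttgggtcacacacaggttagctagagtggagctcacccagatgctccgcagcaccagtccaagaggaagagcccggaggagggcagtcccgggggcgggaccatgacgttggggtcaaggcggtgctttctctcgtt
Slc16a3: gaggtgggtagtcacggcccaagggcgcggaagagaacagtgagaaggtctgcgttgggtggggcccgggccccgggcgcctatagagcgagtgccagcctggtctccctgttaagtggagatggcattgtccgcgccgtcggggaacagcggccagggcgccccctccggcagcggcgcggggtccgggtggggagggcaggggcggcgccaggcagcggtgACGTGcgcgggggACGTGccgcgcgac
Adm: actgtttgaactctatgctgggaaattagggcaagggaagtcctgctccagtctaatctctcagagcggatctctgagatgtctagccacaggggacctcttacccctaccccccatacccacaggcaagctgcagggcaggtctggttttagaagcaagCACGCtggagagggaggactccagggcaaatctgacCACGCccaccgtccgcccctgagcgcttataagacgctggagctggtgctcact
Pfkp: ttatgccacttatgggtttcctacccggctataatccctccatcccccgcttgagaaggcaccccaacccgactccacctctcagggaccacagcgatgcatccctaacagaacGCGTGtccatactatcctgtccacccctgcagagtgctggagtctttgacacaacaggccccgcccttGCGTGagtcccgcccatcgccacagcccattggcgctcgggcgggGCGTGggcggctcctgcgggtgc
Aldoc: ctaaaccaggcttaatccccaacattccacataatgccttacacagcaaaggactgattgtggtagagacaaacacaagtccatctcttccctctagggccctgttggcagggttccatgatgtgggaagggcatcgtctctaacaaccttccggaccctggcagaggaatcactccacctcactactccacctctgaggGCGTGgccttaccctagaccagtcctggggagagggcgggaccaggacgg
Pfkm: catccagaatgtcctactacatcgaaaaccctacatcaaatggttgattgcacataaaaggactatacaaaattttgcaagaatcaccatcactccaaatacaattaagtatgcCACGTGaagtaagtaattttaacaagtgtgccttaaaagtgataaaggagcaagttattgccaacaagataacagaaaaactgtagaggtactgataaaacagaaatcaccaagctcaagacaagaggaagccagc
Pgk1: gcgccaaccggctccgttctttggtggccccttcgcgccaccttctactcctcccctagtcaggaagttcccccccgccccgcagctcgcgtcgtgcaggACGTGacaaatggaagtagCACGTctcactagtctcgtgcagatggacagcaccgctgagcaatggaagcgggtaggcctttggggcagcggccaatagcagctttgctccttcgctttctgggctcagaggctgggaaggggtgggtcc

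ACGTG stood 229 bases before the start site of Egln3, and at 27 and 14 bases before that of Slc16a3. Pgk1 held 2 ACGTG matches, and the Pfkm promoter shown held the palindrome. Adm and Pfkp held only GCGTG, 2 and 3 times, and Aldoc once. All 7 promoters shown, that of the uncalled Pgk1 included, held at least 1 of the cores. Of the 4 Pfkm promoters, the last (chr15:98111810-98112059) held 0 matches, the second 1 of each core and the third 1 GCGTG.

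The 4 libraries held 6508 to 15000 cells and 44284602 to 71523447 UMIs, with median depths of 3875.5 and 4142 UMIs a cell in the controls against 4961 and 5946 in the knockdowns. Counts were summed per library over the fibroblast compartment (11 deposited mesenchymal classes, 5123 to 12041 cells a library) and the epithelial compartment (5 classes, 1274 to 2589 cells). The deposited AT2 class is used here as cluster 9 (AT2), cluster 14 (AT1-like) and cluster 32, without its mixed clusters 19 and 23. Summed AT2 markers (8 genes) reached 71623 to 101900 CPM in cluster 9 against 803 to 1765 CPM in the transitional class, and the 8 fibroblast markers stood at 6791 to 10219 CPM in the fibroblast compartment. CPM are UMIs of a gene relative to the TMM-scaled library total. Yap1 fell in the fibroblast compartment, from 67.9 and 69.8 CPM in the controls to 44.2 and 38.1 CPM (log2 -0.71 ± 0.11 SE, adjusted p = 0.00864), and Wwtr1 read 265 and 248 against 210 and 179 CPM (-0.36 ± 0.13, adjusted p = 0.115). In the epithelium, labelled wildtype in both groups, Wwtr1 differed as much without a call (292 and 250 against 225 and 194 CPM, -0.37 ± 0.19, adjusted p = 0.486), and Yap1 by -0.17 (adjusted p = 0.697). Libraries stood apart in airway secretory markers, whose 5 genes summed to 1451 and 301 CPM in the control fibroblasts and to 1.27 and 269 CPM in the knockdown fibroblasts. Other markers in the fibroblast sums that moved with the knockdown were those of cycling cells (3 of 3 fell, from 118 and 130 to 54.4 and 65.3 CPM summed), mesothelium (2 of 3 tested fell, 47.8 and 38.5 to 14.6 and 11.6 CPM), immune cells (3 of 4 tested rose, 12.1 and 11.6 to 43.0 and 29.1 CPM) and AT2 cells (3 of 8 rose, 871 and 934 to 2510 and 1211 CPM). In 5 more lists 1 marker each was called: Kdr (endothelial, 4 genes), Hopx (AT1, 8) and Nkx2-1 (pan-epithelial, 5) rose, and Des (smooth muscle, 5) and Lum (fibroblast, 8) fell. In the epithelial sums Des and Col1a2 fell and Tyrobp (immune) rose. The part of any of these in the results was not tested. The classes themselves shifted in number, such as Wnt4+ Fibroblasts with 7 and 32 control cells against 1362 and 971 knockdown cells, so a summed level cannot tell a change per cell from a change in make-up. Across libraries, 1073 cell barcodes occurred more than once, on 2157 cells (4.70%).

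In the fibroblasts that carried the knockdown, 28 of the 33 genes had no detectable change, and 5 did. Aldoc, Pfkp, Egln3 and Slc16a3 fell and Pfkm rose. All 33 members passed the filter on low counts, and edgeR's quasi-likelihood test called 1 higher, 4 lower and left 28 uncalled at an adjusted p under 0.05. Over all 17481 genes tested, 10.6% were called (4.42% higher and 6.22% lower), so a count of 5 among 33 is near that background. The median log2 change of the members was -0.0040, against 0.012 over all genes and 0.092 over genes under 30 kb, the length class that holds 21 of the 33 members.

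**Figure D1:**
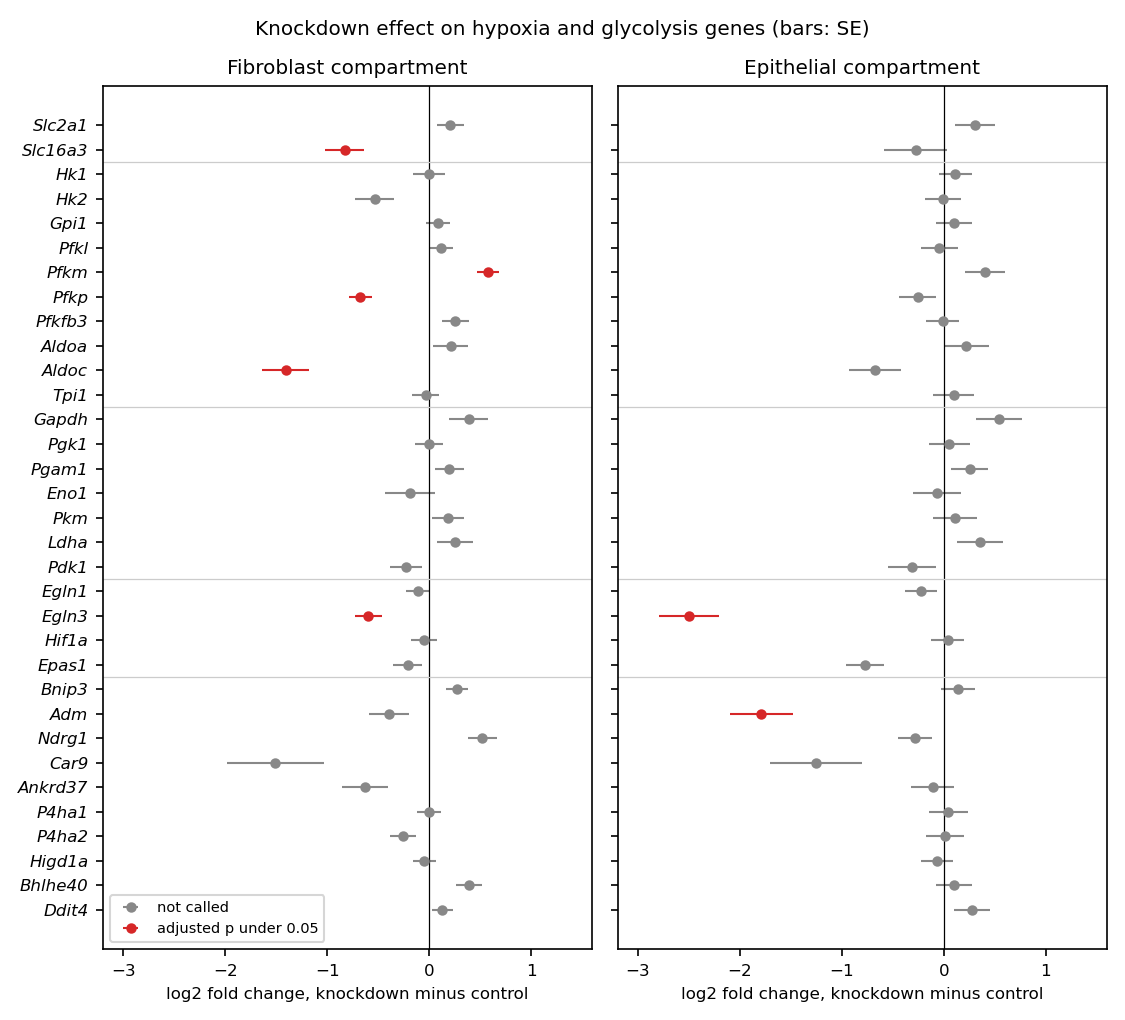
Log2 fold change (x axis, knockdown minus control) of each of the 33 members (y axis, grouped by role: transporters, upper and lower glycolysis, oxygen sensing, other targets) in the fibroblast (left) and epithelial (right) sums; bars are the SE and red marks an adjusted p under 0.05. The red points are Slc16a3, Pfkm, Pfkp, Aldoc and Egln3 on the left and Egln3 and Adm on the right, and the enzymes from Gapdh to Ldha lie between -0.19 and 0.54.

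Of the transporters, Slc16a3 (ENSMUSG00000025161, chromosome 11, 120948480 to 120960868), the MCT4 carrier that exports lactate, read 7.92 and 10.7 CPM in the control fibroblasts and 5.67 and 4.55 CPM in the knockdown fibroblasts. Both knockdown libraries lay below both controls, and Slc16a3 fell by 0.83 on the log2 scale (SE 0.19, adjusted p = 0.0338). That call did not hold without knockdown library 2 (-0.70) and at equal class weights (-0.70, adjusted p = 0.0532). The latter fit held each class at the same share in all libraries and left out classes with under 50 cells in any library. Among those left out were Wnt4+ and Tgfbi+ Fibroblasts. Slc2a1, the GLUT1 glucose transporter, read 67.1 and 82.3 CPM in the controls against 85.1 and 83.0 CPM in the knockdowns, with no call (0.21 ± 0.13, adjusted p = 0.342).

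Upper glycolysis held 3 calls, all at the phosphofructokinase and aldolase steps. Phosphofructokinase makes the committed step of glycolysis and has 3 genes, named for liver (Pfkl), muscle (Pfkm) and platelet (Pfkp). Pfkm (ENSMUSG00000033065, chromosome 15, 98092589 to 98132451) read 16.4 and 16.6 CPM in the controls against 24.0 and 24.0 CPM in the knockdowns, a rise of 0.58 ± 0.11 (adjusted p = 0.0157). Pfkp (ENSMUSG00000021196, chromosome 13, 6579768 to 6648777) went the other way, from 25.6 and 22.9 CPM to 14.4 and 15.1 CPM (-0.68 ± 0.11, adjusted p = 0.0116). Neither pair of groups overlapped. Pfkl was not called, at 29.8 and 32.6 against 32.8 and 33.3 CPM (0.12 ± 0.11, adjusted p = 0.515).

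Added together, the UMIs of the 3 phosphofructokinase genes came to 71.8 and 72.0 CPM in the control fibroblasts and to 71.2 and 72.4 CPM in the knockdown fibroblasts. Within that sum, Pfkm made up 22.8% and 23% in the controls and 33.7% and 33.2% in the knockdowns. Pfkp made up 35.6% and 31.8% in the controls and 20.3% and 20.8% in the knockdowns. The sum lay within 71.2 to 72.4 CPM while its make-up shifted from Pfkp to Pfkm; it was formed after the values were seen and has no test. In the epithelium the sum was 83.0 and 100.2 CPM in the controls against 92.8 and 84.3 CPM in the knockdowns, and Pfkm held 11%, 9.40%, 12.7% and 15% of it in that order. Leaving out knockdown library 2 lost the Pfkm call (adjusted p = 0.0768), and leaving out knockdown library 1 lost that of Pfkp (adjusted p = 0.0547).

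Aldoc (ENSMUSG00000017390, chromosome 11, 78322968 to 78327781), the brain-type aldolase, was the largest called change in the fibroblasts. It read 3.77 and 2.67 CPM in the controls, from 190 and 136 UMIs, and 1.24 and 1.11 CPM in the knockdowns, from 45 and 36 UMIs. It fell by 1.41 (SE 0.23, adjusted p = 0.0109) and was called in all 12 alternative fits of this comparison. Aldoa, the main aldolase, read 180 and 231 CPM in the controls against 213 and 249 CPM in the knockdowns, with overlapping groups and no call (0.21 ± 0.17, adjusted p = 0.454). Aldoc was highest in AT2 cells (13.3 CPM), and its fibroblast level was 56.4% and 28.3% of the epithelial level in the controls and 22.5% and 25.7% in the knockdowns. AT2 markers reached 3.92%, 2.62%, 5.55% and 3.82% of their epithelial level in the fibroblast sums of control 1, control 2, knockdown 1 and knockdown 2 (overlapping groups), and their part was not tested.

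Hk2, the inducible hexokinase that traps glucose in the cell, stood at 283 and 182 CPM in the control fibroblasts and 160 and 152 CPM in the knockdown fibroblasts. Control 1 stood high and the other 3 libraries lay close together, and the difference was not called (-0.53 ± 0.19, adjusted p = 0.116). Of 12 alternative fits 3 called it, DESeq2 among them (adjusted p = 0.033). Its change ran from -0.80 (edgeR without control 2) to -0.20 over these fits. The remaining upper enzymes, Hk1, Gpi1, Tpi1 and the regulator Pfkfb3, lay between -0.03 and 0.26 with no call.

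Lower glycolysis, from glyceraldehyde phosphate to lactate, had 0 calls among 7 genes in the fibroblasts by edgeR, DESeq2 or limma voom, and 0 at an unadjusted p under 0.05, with a median of 0.18. Gapdh, the oxidising step, read 292 and 360 CPM in the controls against 359 and 472 CPM in the knockdowns (0.39 ± 0.19, adjusted p = 0.229). Ldha, which makes lactate, read 284 and 374 against 361 and 405 CPM (0.26 ± 0.18, adjusted p = 0.383). Eno1, an enolase, spread widely within groups, with 83.0 and 136 CPM in the controls against 80.5 and 107 CPM in the knockdowns. Single libraries decided 2 of these: without control 1 Eno1 was called lower (-0.52, adjusted p = 0.0362), and without control 2 Gapdh was called higher (0.57, adjusted p = 0.0327). Groups overlapped for Ldha and Eno1, and for Gapdh the lower knockdown library lay just below the higher control. Pgk1, Pgam1, Pkm and Pdk1, the kinase that closes the path from pyruvate into mitochondria, lay between -0.23 and 0.20. Gapdh, Eno1, Pgk1, Ldha and others have near-identical copies elsewhere in the genome, so their counts are uncertain to the extent that reads were shared.

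Egln3 (ENSMUSG00000035105, chromosome 12, 54178981 to 54203860), the prolyl hydroxylase that HIF itself induces, was the 1 oxygen-sensing gene to change in the fibroblasts. It read 11.5 and 10.0 CPM in the controls against 6.75 and 7.06 CPM in the knockdowns, without overlap, and fell by 0.60 (SE 0.13, adjusted p = 0.0288). The call was lost without knockdown 1 (adjusted p = 0.115), without knockdown 2 (0.0761) and at equal class weights (-0.51, 0.067). Its relative Egln1, the main oxygen sensor, read 14.9 and 14.5 against 12.8 and 13.7 CPM (-0.11 ± 0.12, adjusted p = 0.574). Hif1a, the HIF-1α gene, read 193 and 187 against 167 and 190 CPM, and Epas1 read 19.9 and 15.1 against 14.9 and 14.5 CPM, with no call for either.

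Among the 10 other hypoxia targets, edgeR and limma voom called 0 in the fibroblasts; 3 were higher and 2 lower at an unadjusted p under 0.05, and DESeq2 called 2 higher. Car9, a carbonic anhydrase that exports acid and one of the most HIF-dependent genes known, was near its limit of detection, at 60 and 27 UMIs in the controls against 10 and 10 UMIs in the knockdowns (-1.51 ± 0.47, adjusted p = 0.0829). Ankrd37 read 4.73 and 3.24 against 2.26 and 2.75 CPM (-0.63 ± 0.23, adjusted p = 0.118). Ndrg1, a stress-responsive gene, read 42.7 and 30.8 CPM in the controls against 53.2 and 49.5 CPM in the knockdowns (0.52 ± 0.15, adjusted p = 0.0611). Bhlhe40, a transcriptional repressor, read 135 and 119 against 156 and 169 CPM (0.39 ± 0.12, adjusted p = 0.0839). The DESeq2 calls were Ndrg1 (adjusted p = 0.024) and Bhlhe40 (0.0475). Adm, which encodes the vasodilator peptide adrenomedullin, read 27.1 and 40.1 against 23.4 and 26.4 CPM (-0.39 ± 0.19, adjusted p = 0.225). Bnip3, a mitophagy receptor, the collagen prolyl hydroxylases P4ha1 and P4ha2, Higd1a and Ddit4, an mTOR inhibitor, lay between -0.26 and 0.27. Over all 33 members in the fibroblasts, 4 were higher and 7 lower at an unadjusted p under 0.05, DESeq2 called 3 higher and 5 lower, and limma voom 1 higher and 4 lower.

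**Figure D2:**
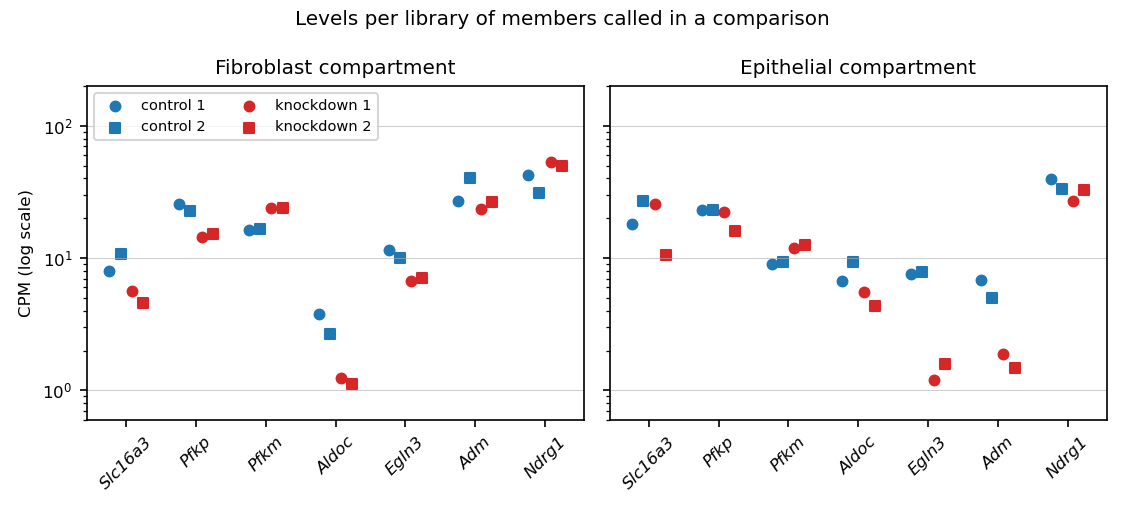
Level in CPM (y axis, log scale) of the 7 members called in a comparison, in the fibroblast (left) and epithelial (right) sums, with 1 point per library (blue controls, red knockdowns; circles library 1, squares library 2). In fibroblasts the red points of Slc16a3, Pfkp, Aldoc and Egln3 lie below the blue ones and those of Pfkm above; in epithelium Egln3 and Adm show the widest gaps, 1.19 to 1.88 CPM against 4.98 to 7.90 CPM.

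The epithelial cells, wildtype in both groups, changed at 2 members. Egln3 and Adm fell, while 0 members rose and 31 were not called. Of the 13952 genes tested in the epithelium 1.44% were called (0.76% lower). The members' median was 0.0086, against 0.022 over all genes and 0.12 over genes under 30 kb. At an unadjusted p under 0.05, 1 member was higher and 5 lower; DESeq2 and limma voom each called 0 higher and 2 lower.

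Epithelial Egln3 read 7.55 and 7.90 CPM in the controls, from 88 and 73 UMIs. In the knockdown cultures it read 1.19 and 1.58 CPM, from 21 and 16 UMIs. The groups stood far apart, and the fall of 2.50 (SE 0.29, adjusted p = 0.000453) was called in all 14 alternative fits, between -2.69 and -1.96. The epithelial effect on Egln3 was larger than the fibroblast effect: the difference of the effects was 1.87 ± 0.27 (fibroblast minus epithelial, adjusted p = 0.00368), and it was called in all 12 alternative fits. Over the 17188 genes tested for that difference, 3.55% were called (1.07% with the fibroblast change above the epithelial one). Among the members 2 were called in that direction, Egln3 and Ndrg1. In the fibroblast sum, cluster 1 of the deposited EMT-like class gave 174 and 126 of the 578 and 510 control Egln3 UMIs. It gave 112 and 89 of the 245 and 228 knockdown UMIs, and its part in the difference was not tested.

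Epithelial Adm (ENSMUSG00000030790, chromosome 7, 110627661 to 110629820) read 6.86 and 4.98 CPM in the controls against 1.88 and 1.48 CPM in the knockdowns, from 80, 46, 33 and 15 UMIs. The groups did not overlap, and Adm fell by 1.79 (SE 0.31, adjusted p = 0.00796). The call was lost without control 1 (-1.54), at equal class weights (-1.40, adjusted p = 0.0833) and without cluster 32 (-1.38, adjusted p = 0.0656). The fit at equal class weights also left out cluster 32, so the latter settings are not separate checks. The difference from the fibroblast effect was 1.39 ± 0.35 and missed the threshold (adjusted p = 0.0594).

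Fibroblast markers in the epithelial sums (8 genes) were lower in the knockdowns, at 895 and 760 against 596 and 392 CPM summed, and 1 of the 8, Col1a2, fell. As a share of their fibroblast level they stood at 11.1% and 7.44% in the controls and 7.87% and 5.77% in the knockdowns, which overlap. Epithelial Adm stood at 25.3% and 12.4% of its fibroblast level in the controls, above the marker share of the same library, and at 8.0% and 5.59% in the knockdowns, next to it. Epithelial Egln3 stood at 65.8% and 78.9% in the controls, and at 17.7% and 22.3% in the knockdowns, above the marker share in all 4 libraries. The part of carried-over RNA in either difference was not tested.

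Ndrg1 (ENSMUSG00000005125, chromosome 15, 66929318 to 66969640) read 39.4 and 33.1 CPM in control epithelium and 27.1 and 32.6 CPM in knockdown epithelium (-0.28 ± 0.17, adjusted p = 0.534). Its fibroblast levels, given above, lay higher in the knockdowns, so the compartments pointed opposite ways. The difference of the effects was 0.78 ± 0.15 (adjusted p = 0.0145), and it was lost without control 2 (0.68, adjusted p = 0.0534). Hk2 pointed the other way without a call, at -0.54 ± 0.14 (adjusted p = 0.066).

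Epas1 (ENSMUSG00000024140, chromosome 17, 86753700 to 86833410) read 47.4 and 37.8 CPM in control epithelium and 28.4 and 21.0 CPM in knockdown epithelium. The groups did not overlap, and the difference just missed the threshold (-0.77 ± 0.18, adjusted p = 0.0554). Of 14 alternative fits 6 called it, with adjusted p from 0.000251 (without knockdown 1) to 0.406 (without control 1), and DESeq2 (0.0671) and limma voom (0.065) did not. Cluster 32 held 169 of 552 and 54 of 349 of its control UMIs, and without that cluster the difference was -0.47 (adjusted p = 0.398). In the tested classes it was -0.56 in AT2, -0.69 in cycling AT2, -0.68 in AT1-like and -0.75 in transitional cells, with no call (adjusted p from 0.126 to 0.483). Epas1 spans 79.7 kb, and over all tested genes the epithelial log2 change fell with gene length (correlation -0.41). With gene length offsets in edgeR the Epas1 difference was -0.65 (adjusted p = 0.0922). Hif1a in the epithelial sum read 103 and 115 against 108 and 115 CPM (0.04 ± 0.16, adjusted p = 0.945).

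Transporters and glycolytic enzymes had 0 calls among 19 genes in the epithelium by edgeR, DESeq2 or limma voom, with 1 higher and 1 lower at an unadjusted p under 0.05. The widest differences were those of Aldoc, at 6.69 and 9.42 against 5.51 and 4.33 CPM (-0.68 ± 0.25, adjusted p = 0.317), and of Gapdh, at 437 and 576 against 674 and 795 CPM (0.54 ± 0.23, adjusted p = 0.385). Slc16a3 read 18.2 and 27.2 against 25.7 and 10.5 CPM, with overlapping groups. Without knockdown 1 its difference went from -0.28 to -1.09 and was called (adjusted p = 0.000309). The controls differed from each other: 11 of 15 glycolytic enzyme genes were at least 1.2-fold higher in control 2 than in control 1, against 20.4% of all genes and 29% of genes under 30 kb. A difference of the size seen for Ldha (386 and 548 against 609 and 579 CPM) was therefore close to the gap between the controls and not detectable here.

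Within single classes, 12 of which had at least 50 cells in every library, edgeR called 10 member changes, all in mesenchymal classes. Over all class fits 3.28% of gene and class pairs were called. The share was 8.23% in the class named Fibroblasts, 7.33% in Myofib-like, 6.24% in EMT-like and 1.31% in Unknown Mesenchymal cells, the classes with member calls. In that order 32, 31, 32 and 27 members were tested, and the member counts are to be read against these shares. With 0 member calls it was 2.31% in Cycling, 2.53% in Inflammatory-1, 2.56% in Inflammatory-2 and 2.48% in Myo1f+ Fibroblasts, where DESeq2 and limma voom called 0 as well and 1 to 6 members in each had an unadjusted p under 0.05. In the Fibroblasts class Ndrg1 read 45.01 and 29.0 CPM in control against 61.2 and 59.9 CPM in knockdown cells, and Aldoc 4.06 and 3.05 against 1.34 and 1.38 CPM. Pfkm (0.52 ± 0.15, adjusted p = 0.0472), Ndrg1 (0.74 ± 0.17, 0.0209) and Bhlhe40 (0.49 ± 0.13, 0.0396) rose. Aldoc (-1.35 ± 0.31, 0.0212) and Egln3 (-0.95 ± 0.23, 0.0242) fell there. That class was mostly cluster 0 in the controls (2412 and 2035 cells against 66 and 23) and mostly cluster 5 in the knockdowns (1393 and 1149 cells against 7 and 76), so its change and its make-up cannot be told apart. Each of these 5 calls was lost in 2 to 5 of 11 alternative fits.

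In Myofib-like cells, Pfkp read 49.1 and 40.3 CPM in the controls against 21.3 and 17.9 CPM in the knockdowns. That fall of 1.18 (SE 0.18, adjusted p = 0.000653) was lost in 1 of 11 alternatives, the fit with no filter on low counts (adjusted p = 0.191). Slc16a3 fell there too, from 40 and 57 UMIs to 10 and 4 (-1.56 ± 0.42, adjusted p = 0.032), and Slc2a1 rose from 46.8 and 55.3 to 76.3 and 77.6 CPM (0.59 ± 0.15, adjusted p = 0.023). Each of the latter 2 calls was lost in 5 of 11 alternatives. The make-up of this class shifted too: cluster 15 gave 703 and 594 of its 1561 and 1512 control cells but 99 and 39 of its 618 and 478 knockdown cells, so change and make-up cannot be told apart. Its smooth muscle markers (5 genes) summed to 422 and 567 CPM in control and 210 and 239 CPM in knockdown cells, on average below those of the Fibroblasts class (360 against 605 CPM), so its name is used only as deposited. Slc16a3 also fell in EMT-like cells, from 7.24 and 5.30 to 3.07 and 2.33 CPM (-1.18 ± 0.32, adjusted p = 0.0378), a call lost in 4 of 11 alternatives.

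Adm in the Unknown Mesenchymal class was at 0 UMIs in both controls, out of 506866 UMIs in 85 and 106 cells. The knockdowns held 26 and 58 UMIs in 436 and 365 cells. Against a floor of 3 counts over the control group, Adm was at least 4.21-fold higher in the knockdowns (adjusted p = 0.0335), a call lost without control 2 and without knockdown 1, and DESeq2 gave it no adjusted p. In the other tested mesenchymal classes Adm ran between 8.63 and 99.8 CPM in every library.

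The 4 tested epithelial classes (background 0.922% in AT2, 0.51% in AT1-like, 1.34% in cycling AT2 and 0.304% in transitional cells) gave 0 member calls out of 122 member and class pairs by edgeR, DESeq2 or limma voom, while 3 were higher and 12 lower at an unadjusted p under 0.05. Egln3 nonetheless read lower in each of them. It read 7.12 and 8.74 against 2.34 and 2.48 CPM in AT2 cells (-1.71 ± 0.49, adjusted p = 0.081), and 4.73 and 3.49 against 0.403 and 1.10 CPM in transitional cells (-2.43 ± 0.55, adjusted p = 0.119). In AT1-like cells it had 9 and 17 UMIs against 3 and 0, and in cycling AT2 cells 8 and 7 against 4 and 3, too few to pass the filter. EMT-like cells had the highest Egln3 level of the 12 classes, 20.1 CPM on average, and no detectable difference (-0.07 ± 0.17, adjusted p = 0.858). Within that class, over plain UMI totals, cluster 1 read 19.4 and 19.4 CPM in the controls against 18.1 and 21.4 CPM. Cluster 25 read 18.5 and 18.4 against 10.7 and 11.7 CPM, from 11, 16, 18 and 14 UMIs. Cluster 33 held 135 and 18 control cells and 0 knockdown cells, so change and make-up cannot be told apart.

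**Figure D3:**
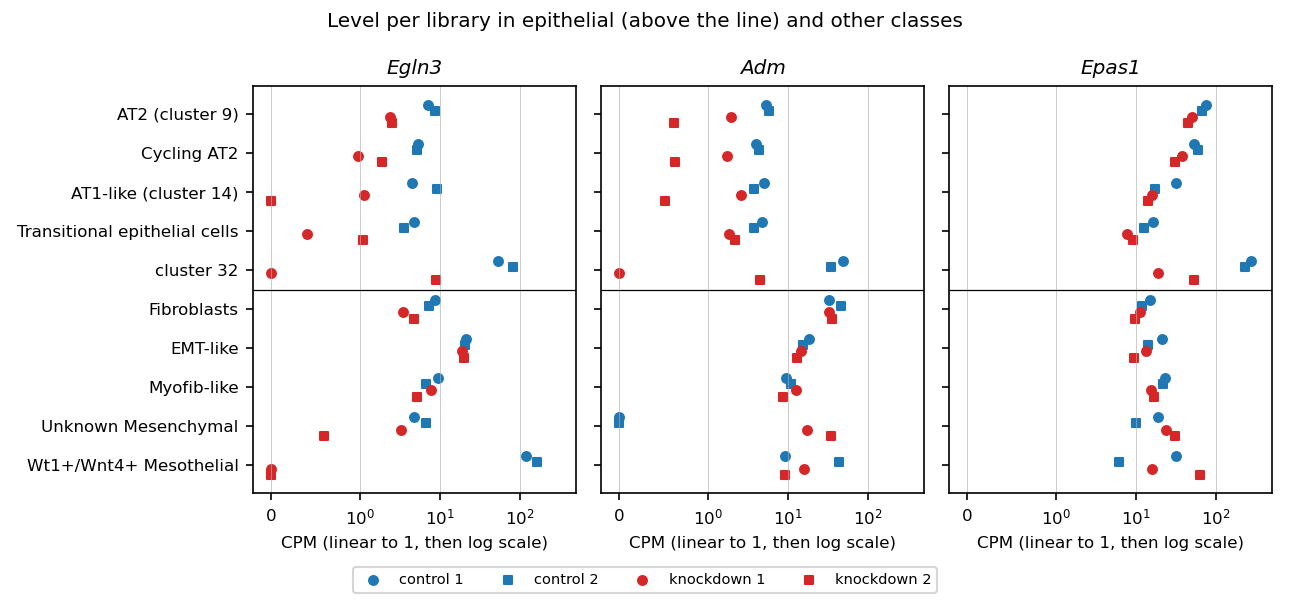
Level in CPM (x axis, linear to 1 and log above) of Egln3, Adm and Epas1 in 5 epithelial classes (above the line) and 5 other classes, 1 point per library. Egln3 points of the knockdowns (red) lie left of the controls (blue) in every epithelial class shown and at 0 in mesothelial cells, and beside them in EMT-like cells.

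In the controls, the highest levels of Egln3 were in 2 small groups of cells. In cluster 32 (82, 25, 21 and 42 cells), Egln3 had 33 and 19 UMIs in the controls against 0 and 4 in the knockdowns. Adm had 30 and 8 UMIs against 0 and 2 there, and Epas1 read 271 and 233 against 18.6 and 53.7 CPM. The 4 mesothelial markers summed to 204 and 440 CPM in the control cells of cluster 32 and to 4.66 and 13.4 CPM in its knockdown cells, with Upk3b at 0 in all libraries. Its airway secretory markers (5 genes) summed to 6244, 1533, 107 and 8358 CPM in the same library order, and the part of either in these differences was not tested.

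Cells deposited as mesothelial (56, 45, 27 and 15 cells), which line the lung and enter neither sum, held 26 and 26 Egln3 UMIs in the controls against 0 and 0 in the knockdowns. Against the floor of 3 counts over the knockdown group, Egln3 was at least 14.3-fold lower there. It was found in 14 and 12 control cells. The markers of the class moved as well: its mesothelial markers summed to 836 and 654 CPM in the controls against 590 and 344 CPM in the knockdowns, and 4 endothelial markers to 18.1 and 18.5 against 251 and 109 CPM. Their part was not tested. The class was too small for a test, and these values cover counting error only.

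Leaving the knockdown aside, the members divided between the tissues. In every one of the 4 libraries, 22 members were higher in the epithelial sum (background 36.7% of genes) and 8 in the fibroblast sum (background 40.8%), and Pfkp, Bnip3 and Ndrg1 in neither. The epithelial side held most of the enzyme path, with Slc16a3 at 2.83-fold, Aldoc at 2.95-fold, Pdk1 at 2.40-fold, Gapdh at 1.67-fold and Ldha at 1.49-fold the fibroblast level. It also held Ankrd37 (5.62-fold), P4ha2 (2.39-fold), Egln1 (2.10-fold) and Epas1 (2.09-fold). The fibroblast side held Adm (7.70-fold), Hk2 (3.62-fold), Egln3 (1.94-fold), P4ha1 (1.89-fold), Pfkm (1.89-fold), Hif1a (1.67-fold), Slc2a1 (1.57-fold) and Gpi1 (1.37-fold). So glucose entry by Slc2a1 and its first step by Hk2 read higher in the fibroblasts, and the steps that follow, down to lactate export, read higher in the epithelium, apart from Gpi1, Pfkm and Pfkp. The paired genes of a step also split, with Hk1 epithelial and Hk2 fibroblast, and Epas1 epithelial and Hif1a fibroblast. The classes were defined from the same cells, so these are levels with no test.

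**Figure D4:**
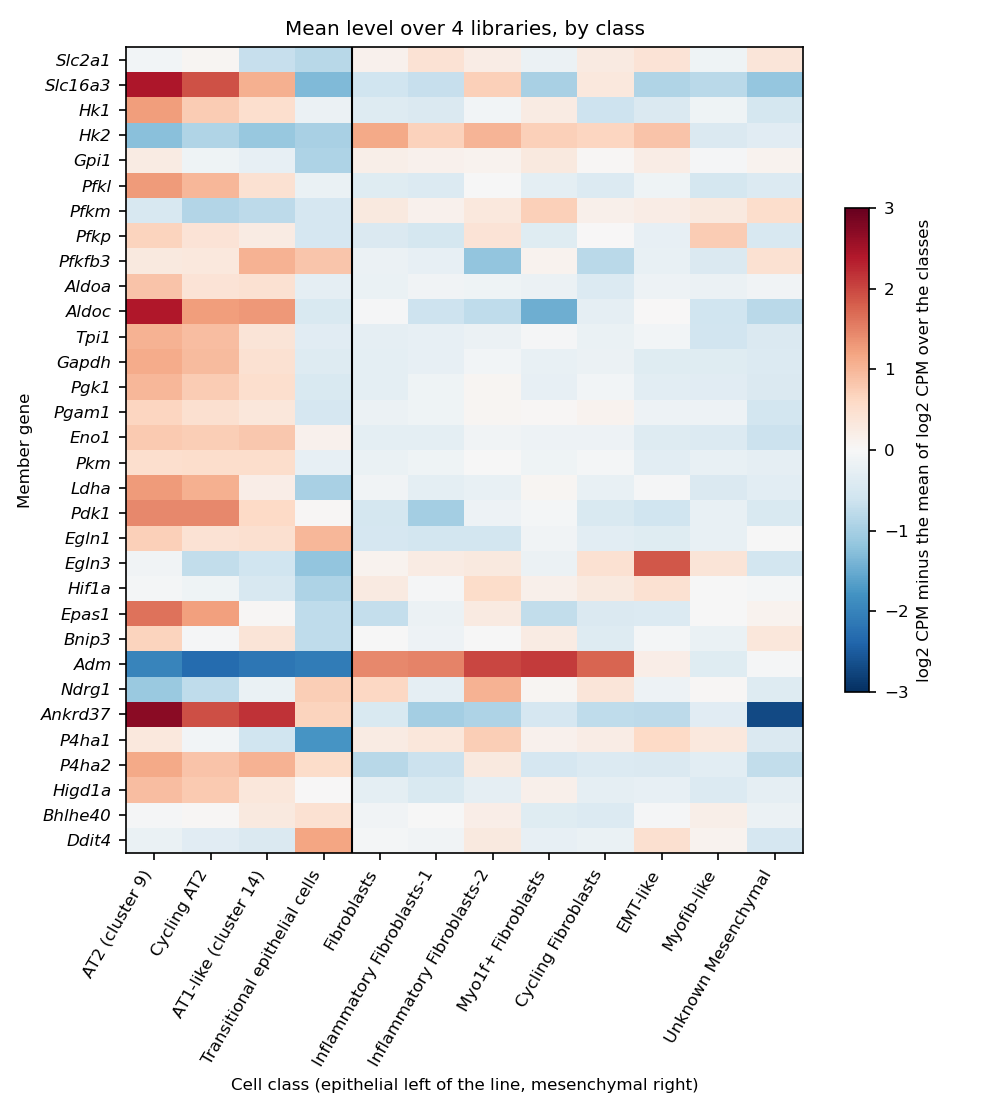
Mean level over the 4 libraries of 32 members (rows; Car9 is left out because it was at 0 in 1 class) in the 12 tested classes (columns), as log2 CPM minus that gene's mean over the classes. The AT2, cycling AT2 and AT1-like columns are red for most glycolytic enzymes, while the transitional column is blue for Slc16a3, Ldha, P4ha1 and Epas1, and Adm and Hk2 are red in the fibroblast columns.

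AT2 cells were the class with the highest mean for 16 of the 33 members. Only for Hk1 and Aldoa did their range clear that of the next class, which was most often cycling AT2. The share of all genes that were highest in AT2 cells was not counted. AT2 cells stood apart from transitional cells, a state on the way from AT2 to AT1 cells. Slc16a3 averaged 44.9 CPM in AT2 cells and 3.33 CPM in transitional cells, 13.5-fold apart. Ldha averaged 968 against 201 CPM (4.80-fold), Aldoc 13.3 against 1.83 CPM (7.24-fold), Epas1 59.4 against 11.4 CPM (5.20-fold) and P4ha1 115 against 27.1 CPM (4.25-fold). In all, 14 members were at least 2-fold higher in AT2 cells in 4 of 4 libraries, where 7.33% of genes were. Of the 21 members under 30 kb, 10 were, against 6.69% of genes of that length.

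Only 2 members ran the other way by that measure. Ndrg1 averaged 52.7 CPM in transitional cells against 14.6 CPM in AT2 cells (3.60-fold), and Ddit4 averaged 85.1 against 32.4 CPM (2.63-fold), where 5.03% of genes did so. Egln1 and Bhlhe40 were also highest in transitional cells, although their ranges overlapped those of the next class. Pfkfb3 was highest in AT1-like cells, at 30.8 CPM, with transitional cells next at 26.6 CPM.

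Adm and Hk2 marked the fibroblast side. Adm was highest in Myo1f+ and Inflammatory Fibroblasts-2 (57.5 and 53.5 CPM, overlapping ranges) and lowest in cycling AT2 cells (2.67 CPM). Hk2 was highest in the Fibroblasts class at 252 CPM and lowest in AT2 cells at 47.5 CPM. Egln3 was highest in EMT-like cells at 20.1 CPM, with Cycling Fibroblasts next at 7.60 CPM and no overlap between them.

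Summed over 15 glycolytic enzyme genes (the glycolytic members without the regulators Pfkfb3 and Pdk1), AT2 cells gave 0.425% of their UMIs (range 0.371% to 0.485% over libraries) to the pathway. Cycling AT2 cells gave 0.403%, AT1-like cells 0.326% and transitional cells 0.204%. The mesenchymal classes tested lay between 0.195% and 0.225%, so transitional cells ranked with the fibroblasts by this measure. Of UMIs outside the mitochondrial genes, transitional cells gave 0.245%. The same mesenchymal classes gave 0.241% (Unknown Mesenchymal) to 0.299% (Inflammatory Fibroblasts-2), and only Unknown Mesenchymal lay below transitional cells. Over the whole compartments the sum was, of all UMIs, 0.193% and 0.218% in control fibroblasts and 0.194% and 0.239% in knockdown fibroblasts. In the epithelium it was 0.258% and 0.342% in the controls and 0.327% and 0.362% in the knockdowns. The groups overlapped in both compartments. The higher library of each group also had the lower share of mitochondrial UMIs (in fibroblasts 22.6% against 24.4% in the controls and 20.1% against 26.3% in the knockdowns), and the part of that was not tested.

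**Figure D5:**
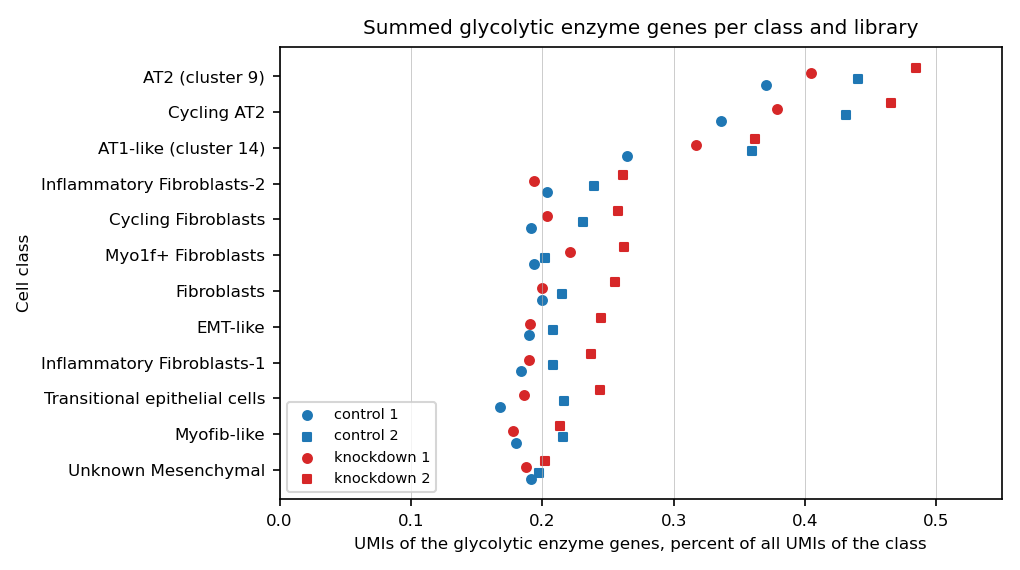
UMIs of the 15 summed glycolytic enzyme genes as a percent of all UMIs (x axis, from 0) in the 12 tested classes (y axis), 1 point per library. AT2 and cycling AT2 cells lie between 0.336% and 0.485%, above every mesenchymal library point, and in each group library 2 (squares) lies to the right of library 1 (circles) in all 12 classes.

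Other genes of the pathway are given from lists, to be read against the 10.6% of all genes called in fibroblasts and 1.44% in epithelium. Of 12 tested HIF regulators, Cited2, which competes with HIF for its co-activator p300, rose in both compartments: in fibroblasts from 18.6 and 17.9 to 31.9 and 39.9 CPM (1.01 ± 0.14, adjusted p = 0.00549), and in epithelium from 55.8 and 59.98 to 94.7 and 162 CPM (1.15 ± 0.22, adjusted p = 0.0167). Arnt2, a HIF partner, fell in fibroblasts (-0.51 ± 0.12, adjusted p = 0.0371), and the other 10 were not called there, nor the other 11 in epithelium. Of 24 further HIF targets in fibroblasts, 3 rose and 4 fell. Those with the smallest adjusted p included Vegfa (0.76 ± 0.12), the angiogenic factor, and Angptl4 (0.92 ± 0.20), a lipase inhibitor, which rose. Stc2 (-1.22 ± 0.20), a secreted glycoprotein, and Lox (-0.64 ± 0.13), a collagen cross-linker, fell. In epithelium 0 of 23 rose and 2 fell, among them Stc2 (-1.70 ± 0.39, adjusted p = 0.0494), while 3 were higher at an unadjusted p under 0.05 and DESeq2 and limma voom each called 0 higher and 1 lower.

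Beside glycolysis, G6pdx, which opens the pentose phosphate pathway, rose in fibroblasts (0.47 ± 0.11, adjusted p = 0.0377), 1 of 7 genes of that path. Of 23 genes of pyruvate entry and the TCA cycle, 2 rose in fibroblasts, the pyruvate carrier Mpc1 and the complex II subunit Sdhd (0.70 ± 0.18, adjusted p = 0.0456), and 0 fell. In the epithelium edgeR and limma voom called 0 genes of either list, 4 of the second were higher at an unadjusted p under 0.05, and DESeq2 called 1. Of 29 nuclear-encoded respiratory chain genes, 0 were called in either compartment by edgeR, DESeq2 or limma voom, with 3 higher at an unadjusted p under 0.05 in each, and medians of 0.19 in fibroblasts and 0.27 in epithelium. Of the 13 mitochondrial genes, edgeR and limma voom called 0 in either compartment, with 2 lower at an unadjusted p under 0.05 in each, and DESeq2 called 2 lower in fibroblasts.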

How the data were processed

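RNA was measured per cell barcode in 4 libraries (2 control, 2 knockdown) with a 10x kit that reads RNA and open chromatin together, per the labels' protocols. The labels do not say whether whole cells or nuclei were loaded, so a level may be that of nuclear RNA, and "cell" means a deposited barcode. The authors deposited whole-number UMI counts per gene and cell for 45936 cells, a mitochondrial percent per cell and an ATAC doublet enrichment ratio per cell, per the file headers. The ratio was used only to describe clusters, and 51 further columns were not used. Per the submitters' processing notes the reads were placed on GRCm38, with an aligner and counter not given in the sources used here. Cell classes are the authors' deposited annotation. Doublets were treated only by leaving out the mixed clusters 19 and 23, whose median deposited enrichment ratio was 2.29 and 2.38 against at most 0.80 in the others.

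Raw counts were summed per library and compartment or class, since cells are not replicates. edgeR 4.0.16 (R 4.3.3; TMM, filterByExpr, quasi-likelihood test, Benjamini-Hochberg over all genes tested, called at an adjusted p under 0.05) is behind each adjusted p; sentences name DESeq2 1.42.0 and limma voom (version 3.58.1) where these were used. Effects in the compartments were compared by an interaction term, libraries blocked. Classes needed 50 cells in every library. Log2 changes are knockdown minus control, with the SE. Alternatives changed the normalisation, filter, tool, gene length offsets, mitochondrial genes, mixed clusters, class weights and libraries. Simulated data with the real means recovered 65% of 2-fold and 93% of 4-fold changes in the fibroblast comparison (17481 genes), with 9.20% false among the calls, and 68%, 96% and 4.09% in the epithelial one (13952 genes). In the simulation only a small share of genes was changed and class make-up did not shift, so these rates may not hold in the data. Libraries of a group differed by more than sampling noise (chi-square per degree of freedom 56.8 and 44.9). Gene positions are from GENCODE and promoter sequences from RefSeq (GRCm38.p6). The members and lists were chosen with earlier results of these data known. Named are all called members, then uncalled ones by size of change, and up to 5 called genes of each other list by adjusted p; 1 such gene is not reported here.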

Additional observations from a re-analysis of the deposited data

Results flagged for a closer look

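The knockdown effect on Egln3 differed between the compartments. The fibroblast effect minus the epithelial effect was 1.87 ± 0.27 on the log2 scale (adjusted p = 0.00368 for the interaction in edgeR). The fall in epithelium was the larger in both knockdown libraries. The fibroblast sum includes EMT-like cells, the tested class with the highest Egln3 level and no detectable difference, and their part was not tested. The knockdown effect on Ndrg1 differed as well, by 0.78 ± 0.15 (adjusted p = 0.0145), with higher levels in the knockdown fibroblasts and lower ones in the knockdown epithelium. Without control 2 that difference was 0.68 and was not called (adjusted p = 0.0534). Groups of 2 libraries are too small for the check for single outlying samples.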

How the results depend on the processing

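In fibroblasts 5 members and 1860 genes were called. DESeq2 called 8 members, equal class weights gave 3 members and 1055 genes, and leaving out 1 library gave 2 to 9 members and 998 to 3666 genes. In epithelium 2 members and 201 genes were called. Equal class weights, which also left out cluster 32, gave 1 member and 107 genes. Leaving out only cluster 32, chosen after seeing the data, gave 1 member and 129 genes. No filter on low counts gave 528 genes, the mixed clusters put back 780, and leaving out 1 library 1 to 4 members and 136 to 684 genes. The difference of effects (2 members, 610 genes) gave 5 members and 1303 genes with no filter, 288 genes by DESeq2, 394 without mitochondrial genes, 1010 with the mixed clusters, and 2 to 4 members and 249 to 975 genes with 1 library left out. Class fits (10 members, 4483 genes) gave 3 and 2470 by DESeq2, and 5 to 17 and 2810 to 7486 with 1 library left out. The cause was not tested.

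With the replicate number as a block, 14 members and 5820 genes were called in fibroblasts, 329 genes in epithelium, and 35 members and 13295 genes in the class fits. Same-numbered libraries share only a number: their deviations correlated at 0.115 in fibroblasts and 0.0828 in epithelium. No paired analysis was possible for the difference of effects, because its fit already holds the library as a block.

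No called member changed direction under any alternative run. Of 90 uncalled member results in the 3 compartment comparisons, 42 changed sign and 17 were called under some alternative. With 2 libraries a group, low-count members such as Car9 and Egln3 in single epithelial classes could not be resolved.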
